A study of Saccharomyces cerevisiae with 24 samples.

Results

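The 7 genes described here are those of the budding yeast response to DNA damage and of dNTP synthesis that the study's arrays measure under the names RNR1, RNR3, RNR2, RNR4, HUG1, MAG1 and RAD54. They were taken by gene name from the annotation of the array platform, and each had 1 probe among 6388 gene probes, of which 5326 have a name. Saccharomyces cerevisiae cells, described as BY4742, were grown to mid-log phase in synthetic complete medium with glucose. The RNA of each culture was compared with 1 pool of wild type RNA on dual-channel arrays. The mutants carry a shortened C-terminal domain (CTD) of Rpb1, the largest subunit of RNA polymerase II, made at the RPB1 locus by a premature stop codon and a NAT marker. The groups were rpb1-CTD11 and rpb1-CTD12, the short truncations, rpb1-CTD13 and rpb1-CTD20 (all named by the heptapeptide repeats kept, as rpb1-ctrunc-CTD1-11 and so on in the labels); RPB1-CTDWT, with 26 repeats and the NAT marker after the native stop codon; rpb1-CTD11 cdk8Δ and rpb1-CTD12 cdk8Δ, which also lack the Mediator kinase gene CDK8 (SSN3); wild type 330 rpm; and wild type. There were 8 wild type arrays, of which 4 carry the label k1, 2 the label k2 and 2 the label k3. The other 8 groups had 2 arrays each, an a array with the sample in Cy3 and a b array with the sample in Cy5. The growth protocol gives a slower shaking speed for all samples than the 330 rpm of that label. The labels of the double mutants give no shaking speed, so setting them against wild type 330 rpm is an assumption. The study describes 2 independent cultures per mutant; whether wild type arrays with the same k label share a culture is not stated, and p-values measure the spread between arrays. The sources used here do not name the set of strains that was hybridized. The signals of the marker genes LYS2 and MET17, given below, differed between groups. Whether all strains share the BY4742 background was not tested.

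Ribonucleotide reductase makes the dNTPs for DNA replication and repair. In yeast, Rnr1 is the main large subunit and Rnr3 an alternative large subunit that is made mostly after DNA damage, while Rnr2 and Rnr4 form the small subunit. The Mec1-Rad53-Dun1 kinase cascade lifts the repressor Rfx1 (also called Crt1), with Cyc8 and Tup1, from RNR2, RNR3, RNR4 and HUG1, and RNR1 is instead mainly a G1/S gene under MBF. Hug1 is a small protein that binds and inhibits the reductase. Mag1 is the glycosylase that removes alkylated bases such as 3-methyladenine, and Rad54 is a motor protein of homologous recombination; all of these genes are known from work on damaged cells, but no damaging agent was used here.

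Levels are log2 ratios of the strain over the wild type pool, with the dye term of the fit removed, and differences between groups come from limma over all arrays, with p adjusted by Benjamini-Hochberg over all 6388 probes and called under 0.01. Over the 24 arrays the sample channel had a median signal of 314 to 1184 and a median local background of 42 to 71. Percentile 99 of the empty spots, taken as the limit of background, was exceeded by 86.1 to 98.6% of gene probes. RNR1, RNR2 and RNR4 were bright (1566 to 9073), MAG1 and RAD54 were intermediate (155 to 1207), and RNR3 and HUG1 were dim (65.2 to 196). Neither of the dim probes was above background on the rpb1-CTD20 b array, and the offset added before the log2 draws ratios of such probes towards 0. The probe sequences were not used here, so signal shared between the related genes RNR1 and RNR3 cannot be told apart.

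Several probes separated the strains in ways that the CTD labels do not give, and they bear on each comparison that follows. The deleted gene SSN3 was at -1.84 to -1.52 in both double mutants and not above background there, against -0.04 and 0.00 in wild type 330 rpm, which fits the labels. OLI1, a subunit gene of the mitochondrial ATP synthase that lies on the mitochondrial genome, was at -5.22 and -4.98 in rpb1-CTD11 and at -5.29 and -4.92 in rpb1-CTD12, against -0.50 to 0.79 in all other groups. Over the 19 probes of mitochondrially encoded genes, a list drawn up after the OLI1 values were seen, 15 fell in rpb1-CTD11 and 15 in rpb1-CTD12. Their summed signal was 1126 and 1654 in rpb1-CTD11 and 1075 and 1560 in rpb1-CTD12, against 7150 to 18381 in wild type, and 5 or 6 of the 19 were above background on those 4 arrays, against 14 to 17 in wild type. In rpb1-CTD11 cdk8Δ the sum was 6802 and 15596 and in rpb1-CTD12 cdk8Δ 4240 and 14084, against 4591 and 7984 in wild type 330 rpm. LYS2, a lysine synthesis gene used as a strain marker, was at 2.36 to 3.48 in the 4 truncation strains and both double mutants, against -0.10 to 0.14 in RPB1-CTDWT and both wild types. MET17, another marker gene of laboratory strains, was at -4.98 to -4.42 in rpb1-CTD12, rpb1-CTD13 and rpb1-CTD20 and at 0.94 and 1.2 in rpb1-CTD11, against -0.39 to 0.26 in the other groups. All 4 α-cell markers fell in rpb1-CTD11 and in rpb1-CTD12, where their summed signal was 11084 to 37284, against 27814 to 88463 in wild type, and 4 and 3 of them fell in rpb1-CTD11 cdk8Δ and rpb1-CTD12 cdk8Δ. The 6 markers of a cells summed to 519 to 1322 in all groups. Of these, 1 rose and 1 fell in rpb1-CTD11 and 1 fell in rpb1-CTD12. In rpb1-CTD12 cdk8Δ 2 rose, MFA1 by 0.41 and MFA2 by 0.33 (adjusted p = 0.00038 and 0.00079). RPO21, the gene that encodes Rpb1, differed by -1.57 to -1.32 from wild type in rpb1-CTD11, rpb1-CTD12 and rpb1-CTD13, by -0.34 in rpb1-CTD20 (adjusted p = 0.29) and by -0.97 in RPB1-CTDWT, and the place of its probe relative to the premature stop codon is not given in the sources used here. No chromosome that carries one of the 7 genes had a median difference beyond -0.03 to 0.02 in any of the truncation strains or double mutants.

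**Figure D1:**
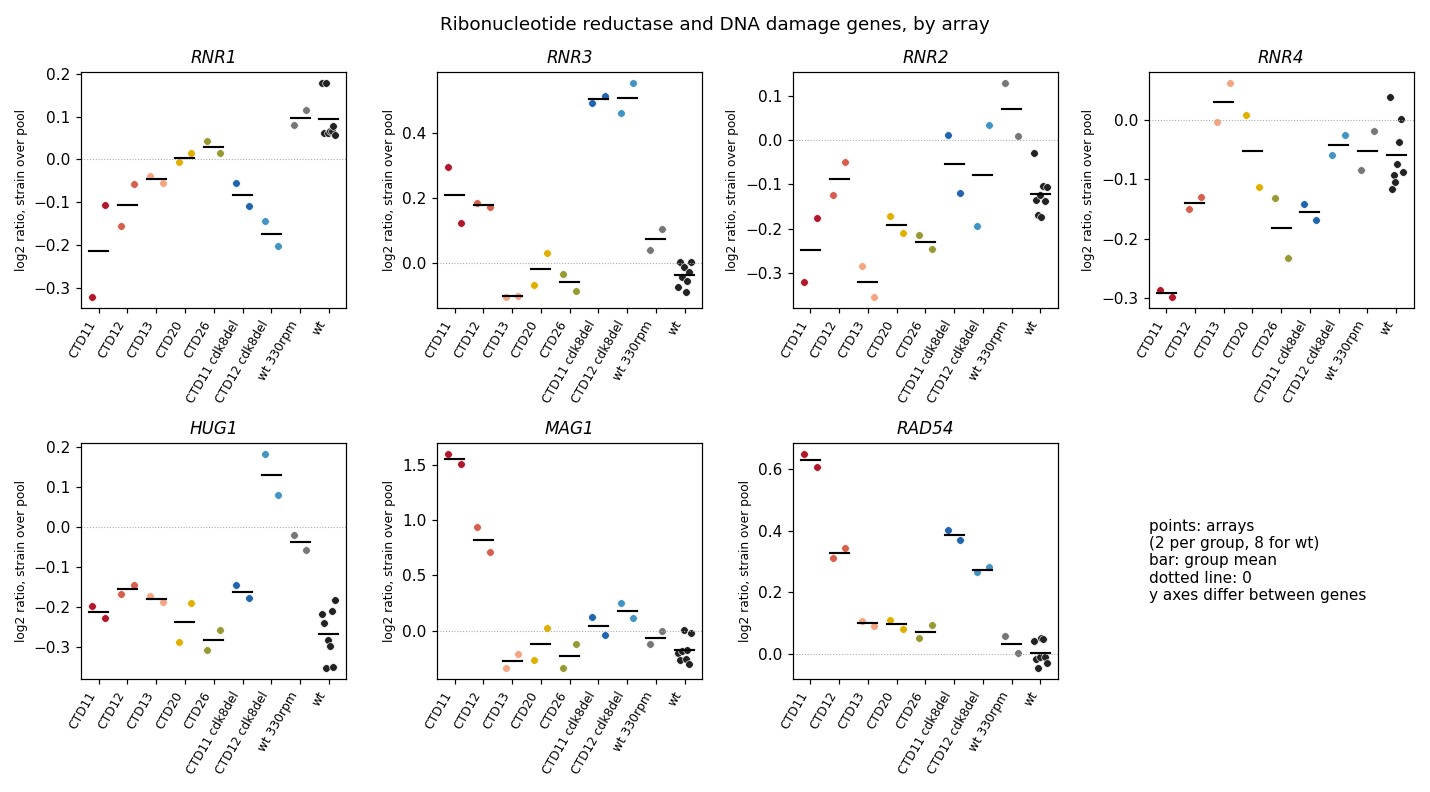
Level of each of the 7 genes on every array, as the log2 ratio of the strain over the wild type pool (y axis; its scale differs between genes), by group (x axis; CTD11 stands for rpb1-CTD11, CTD26 for RPB1-CTDWT and cdk8del for cdk8Δ), with points for arrays and bars for group means. MAG1 stands at 1.60 and 1.504 in rpb1-CTD11 and RNR3 at 0.46 to 0.56 in the double mutants, while RNR2 stays between -0.35 and 0.13 throughout.

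In rpb1-CTD11, 3 of the 7 rose (MAG1, RAD54 and RNR3) and 2 fell (RNR1 and RNR4), where 24.3% of all probes rose and 24.9% fell. In rpb1-CTD12, 3 rose (the same 3) and 1 fell (RNR1), against 18.6% and 17.4% of all probes. None of the 7 was called in rpb1-CTD13, in which 1.52% of all probes rose and 4.34% fell, in rpb1-CTD20 (0.172% and 0.204%) or in RPB1-CTDWT (0.0157% and 0.125%); at an unadjusted p under 0.05 the genes past it were RNR1, RNR2 and RAD54 in rpb1-CTD13 (25.7% of all probes), RAD54 in rpb1-CTD20 (13.4%), and RNR4 and RAD54 in RPB1-CTDWT (9.0%). In rpb1-CTD11 cdk8Δ 2 rose and none fell (15.2% and 13.2% of all probes), and in rpb1-CTD12 cdk8Δ 2 rose and 1 fell (15.6% and 11.2%). The loss of CDK8 lowered 2 of the 7 with 11 repeats and raised none (15.6% lower and 15.4% higher over all probes), and lowered 1 with 12 repeats (9.05% lower and 10.3% higher). Between rpb1-CTD11 and rpb1-CTD12, 2 of the 7 were higher and none lower (4.20% and 3.57%), and between wild type 330 rpm and wild type 1 was higher and none lower (2.46% and 2.00%). With a fold change over 1.7 in addition, MAG1 alone was called in rpb1-CTD11, where 2.41% of all probes rose by that rule. The median difference of the 7 genes was 0.06 in rpb1-CTD11 and 0.11 in rpb1-CTD12, against 0.001 over all probes in both. The comparisons of the single mutants share the same 8 wild type arrays, and those of the double mutants share the 2 arrays of wild type 330 rpm.

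**Figure D2:**
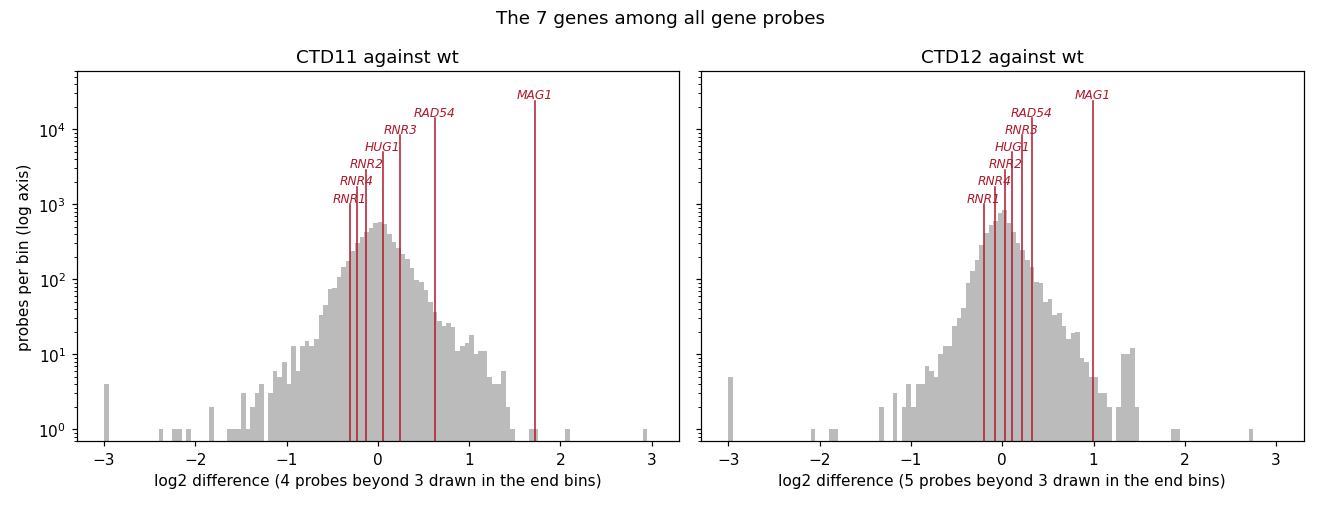
Number of gene probes (y axis, log scale) by log2 difference from wild type (x axis) in rpb1-CTD11 (left) and rpb1-CTD12 (right), with red lines at the 7 genes; the heights of the lines carry no value. MAG1 lies at 1.72 and 1.00 in the upper tail, and RNR1, RNR2, RNR4, HUG1 and RNR3 lie between -0.31 and 0.25 within the bulk of the probes.

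MAG1 showed the widest range of the 7 genes. In rpb1-CTD11 its level was 1.60 on the a array and 1.504 on the b array, and in rpb1-CTD12 it was 0.94 and 0.71, against a lowest value of -0.30, a median of -0.19 and a highest value of 0.005 in wild type. All 4 arrays of these truncation strains lay above all 8 wild type arrays, and the rpb1-CTD11 arrays lay above the rpb1-CTD12 arrays. MAG1 was 3.30-fold higher in rpb1-CTD11 than in wild type (log2 difference 1.72, SE 0.0893, adjusted p = 1.2e-11), the third highest difference of all 6388 probes. It was 1.99-fold higher in rpb1-CTD12 (log2 difference 1.00, adjusted p = 7.1e-08), rank 53 from the top. Set against each other, rpb1-CTD11 exceeded rpb1-CTD12 by 0.73 (SE 0.113, adjusted p = 0.00023), and between these 2 strains none of the 19 mitochondrial probes passed the test, while MET17 differed by 5.76 (adjusted p = 2.3e-18) and 3 of the 4 α-cell markers were lower (median -0.91). The part of these markers in the MAG1 difference was not tested. Against rpb1-CTD20 MAG1 was higher by 1.67 in rpb1-CTD11 (adjusted p = 1.1e-09) and by 0.94 in rpb1-CTD12 (adjusted p = 4.1e-06), a comparison added after the data were seen. The strain rpb1-CTD20 shares the high LYS2 signal of both but not their low OLI1 signal (0.48 and 0.23 in rpb1-CTD20). Its MET17 signal of -4.83 and -4.98 is also unlike that of rpb1-CTD11. The part of these markers in this comparison was not tested.

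In the strains with longer CTDs MAG1 lay near wild type. The levels were -0.34 and -0.21 in rpb1-CTD13, -0.26 and 0.03 in rpb1-CTD20, and -0.34 and -0.12 in RPB1-CTDWT, which overlap the wild type range in each case. The log2 differences from wild type were -0.10 for rpb1-CTD13 (95% confidence interval -0.29 to 0.09), 0.06 for rpb1-CTD20 (-0.13 to 0.24) and -0.06 for RPB1-CTDWT (-0.24 to 0.13). The summed mitochondrial signal of these strains was 5529 to 12957, above that of rpb1-CTD11 and rpb1-CTD12. The parts of CTD length and of the mitochondrial signal in the MAG1 pattern were not tested.

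In the double mutants MAG1 stood far below the single mutants. The level was 0.13 and -0.04 in rpb1-CTD11 cdk8Δ and 0.25 and 0.11 in rpb1-CTD12 cdk8Δ, against -0.12 and -0.005 in wild type 330 rpm. The arrays of rpb1-CTD11 cdk8Δ overlapped those of wild type 330 rpm and the arrays of rpb1-CTD12 cdk8Δ lay above them. Neither difference passed the test, with 0.11 for 11 repeats (95% confidence interval -0.13 to 0.34, adjusted p = 0.50) and 0.24 for 12 repeats (0.01 to 0.48, adjusted p = 0.10). With wild type in place of wild type 330 rpm the difference for 12 repeats was 0.35 and passed it (adjusted p = 0.0024). The effect of losing CDK8, taken as the difference of the double mutant from wild type 330 rpm minus that of the single mutant from wild type, was -1.62 with 11 repeats (SE 0.144, adjusted p = 6.3e-08) and -0.75 with 12 repeats (SE 0.144, adjusted p = 6e-04). The mitochondrial probes moved with this contrast, with 15 of 19 higher for each CTD length. MET17 differed in it by -0.77 with 11 repeats (adjusted p = 6.7e-05) and by 4.78 with 12 repeats (adjusted p = 5.2e-15). The part of these probes in the MAG1 difference was not tested.

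**Figure D3:**
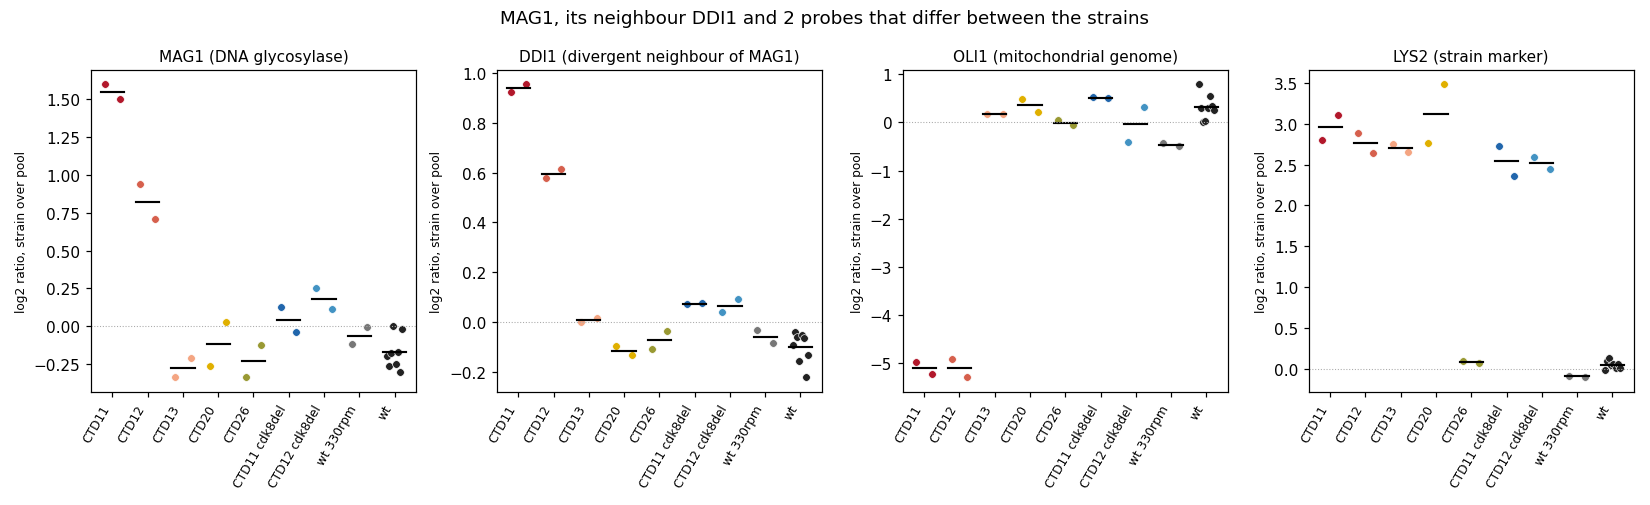
Log2 ratio of the strain over the wild type pool on every array (y axis; its scale differs between genes) for MAG1, its neighbour DDI1, the mitochondrial gene OLI1 and the strain marker LYS2, by group (x axis; names as in the plot of the 7 genes by array), with bars for group means. MAG1 and DDI1 are high where OLI1 is at -5.29 to -4.92, in rpb1-CTD11 and rpb1-CTD12, and LYS2 is also high in rpb1-CTD13, rpb1-CTD20 and the double mutants.

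MAG1 and DDI1 are adjacent and divergently transcribed genes, and Ddi1 is a ubiquitin-dependent protease. DDI1 was at 0.92 and 0.95 in rpb1-CTD11 and at 0.58 and 0.62 in rpb1-CTD12, against -0.22 to -0.04 in wild type, and it rose in both strains (log2 difference 1.04, adjusted p = 3.4e-13, and 0.70, adjusted p = 3.3e-10). It was at 0.07 and 0.08 in rpb1-CTD11 cdk8Δ and at 0.04 and 0.09 in rpb1-CTD12 cdk8Δ, against -0.03 and -0.09 in wild type 330 rpm. Over the 9 group means, which share the reference pool, MAG1 and DDI1 had r = 0.98, and over the 8 wild type arrays r = -0.17. The named probes most like MAG1 over the 9 group means were ATG1, the kinase that starts autophagy (r = 0.999), PET112, a subunit of the mitochondrial glutamyl-tRNA amidotransferase (r = 0.992), and BET4, a subunit of the prenyltransferase of Rab proteins (r = 0.990). Of these, ATG1 differed from wild type by 1.02 in rpb1-CTD11 and by 0.57 in rpb1-CTD12.

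DDI1 was listed with 6 genes of the proteasome system, RPN4 and targets of the transcription factor Rpn4 which it encodes. The study had already reported, from its expression arrays, that genes raised in rpb1-CTD11 were enriched for proteasome functions and Rpn4 targets. It also reported that those restored by deleting CDK8 were mainly under Rpn4. The values of this list therefore repeat that finding and are no independent support for it. All 7 rose in rpb1-CTD11 with a median of 1.04, against 0.00 over all probes, and 6 of 7 rose in rpb1-CTD12 with a median of 0.62; of all probes 24.3% and 18.6% rose. The core subunit genes PRE3 and PRE1 differed by 1.15 (adjusted p = 8.2e-15) and 1.19 (adjusted p = 3.7e-14) in rpb1-CTD11, and UMP1, a chaperone of proteasome assembly, by 1.04 (adjusted p = 5.5e-13). Losing CDK8 lowered 6 of the 7 with 11 repeats (median -0.91; 15.6% of all probes) and 6 with 12 repeats (median -0.48; 9.05% of all probes), where 1 rose. RPN4 itself, picked out after its values were seen, followed another course: it rose by 0.35 in rpb1-CTD11 (adjusted p = 0.00054) and was at -0.06 in rpb1-CTD12 (adjusted p = 0.55), and it rose by 0.56 in rpb1-CTD11 cdk8Δ and by 0.39 in rpb1-CTD12 cdk8Δ (adjusted p = 0.00011 and 0.003).

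RAD54 rose in both short truncations and in both double mutants. Its level was 0.65 and 0.61 in rpb1-CTD11 and 0.31 and 0.34 in rpb1-CTD12, against a lowest value of -0.04, a median of -0.01 and a highest value of 0.05 in wild type. The difference was 0.62 in rpb1-CTD11 (1.54-fold, SE 0.0314, adjusted p = 8.4e-12) and 0.32 in rpb1-CTD12 (1.25-fold, adjusted p = 2e-07), and rpb1-CTD11 exceeded rpb1-CTD12 by 0.30 (adjusted p = 4.8e-05). In the double mutants its level was 0.40 and 0.37 with 11 repeats and 0.27 and 0.28 with 12 repeats, against 0.06 and 0.005 in wild type 330 rpm, with no overlap. These differences were 0.35 (adjusted p = 1.1e-06) and 0.24 (adjusted p = 9.1e-05). In the same comparisons 6 of the 19 mitochondrial probes rose and 0 fell with 11 repeats, and 0 rose and 0 fell with 12 repeats. In wild type 330 rpm itself 11 of them were lower than in wild type. LYS2 was higher by 2.63 and 2.61 in the double mutants, and 4 and 3 of the 4 α-cell markers were lower. The part of these probes in the RAD54 differences was not tested. Against rpb1-CTD20 the differences of rpb1-CTD11 and rpb1-CTD12 were 0.53 and 0.23 (adjusted p = 3.9e-09 and 0.00016). The loss of CDK8 lowered RAD54 by 0.27 with 11 repeats (log2 difference -0.27, adjusted p = 3e-04), whereas the value with 12 repeats was -0.08 (95% confidence interval -0.19 to 0.03, adjusted p = 0.25); the difference between these effects was -0.19 (adjusted p = 0.049).

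In the strains with longer CTDs RAD54 lay just above wild type without passing the test. It was at 0.11 and 0.09 in rpb1-CTD13, at 0.11 and 0.08 in rpb1-CTD20 and at 0.05 and 0.09 in RPB1-CTDWT. All 6 of these arrays lay above the highest wild type array, with differences of 0.10, 0.09 and 0.07 (adjusted p = 0.057, 0.17 and 0.54). In RPB1-CTDWT the margin was narrow, with 0.053 on the lower array against 0.051 on the highest wild type array. RNR1 was likewise separated from wild type in each of these groups, on the low side. How many of all probes separate in this way was not counted. Because the 8 wild type arrays serve each time, the separations are not independent. The named probes most like RAD54 over the 9 group means were PUP1 (r = 0.993) and PRE6 (r = 0.986), both subunits of the proteasome core, and SAM37, of the mitochondrial sorting machinery (r = 0.985). The order of RAD54 means from the top was rpb1-CTD11, rpb1-CTD11 cdk8Δ, rpb1-CTD12, rpb1-CTD12 cdk8Δ, rpb1-CTD13, rpb1-CTD20, RPB1-CTDWT, wild type 330 rpm and wild type; between rpb1-CTD13, rpb1-CTD20 and RPB1-CTDWT the means of 0.10, 0.10 and 0.07 lay within the spread of the arrays.

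**Figure D4:**
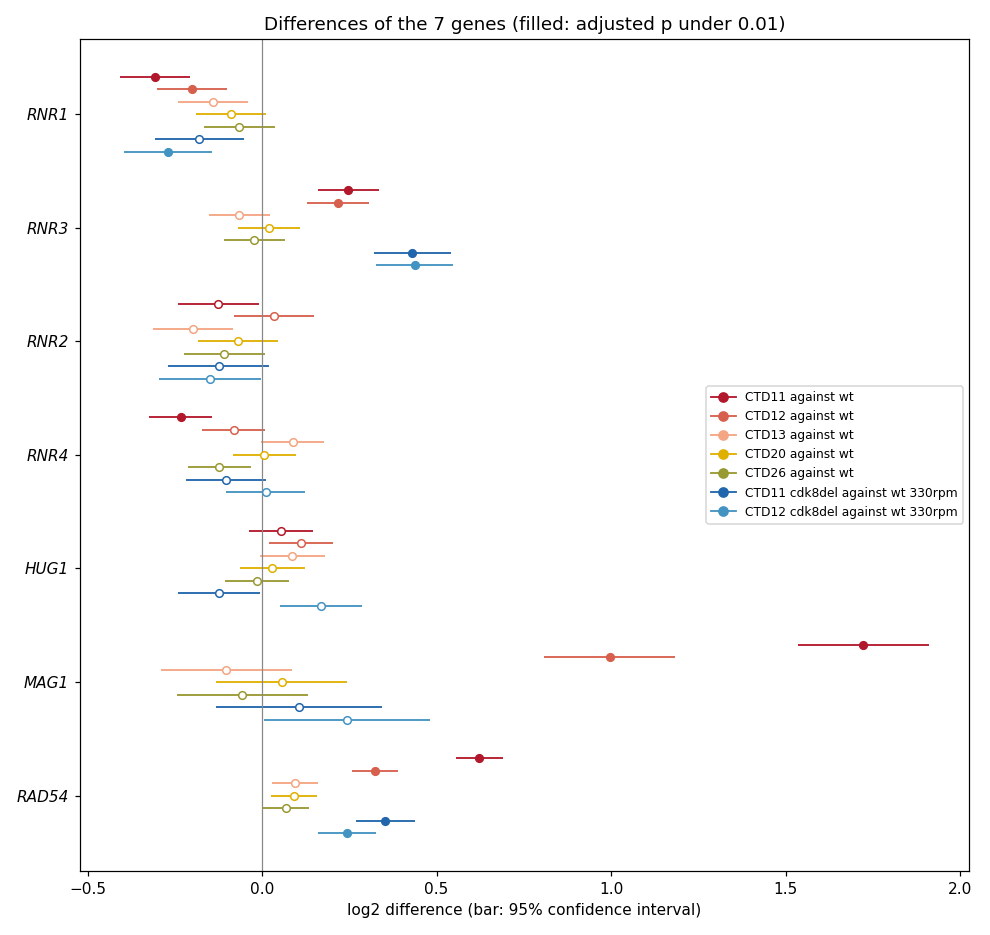
Log2 difference of the 7 genes (rows) in each truncation strain and RPB1-CTDWT against wild type and in each double mutant against wild type 330 rpm (x axis), with bars for the 95% confidence interval and filled points for an adjusted p under 0.01. Points for MAG1 and RAD54 in rpb1-CTD11 stand at 1.72 and 0.62, and the largest differences of RNR3, 0.43 and 0.44, are those of the double mutants.

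RNR3, the damage-inducible large subunit, differed most in the double mutants. Its level was 0.49 and 0.52 in rpb1-CTD11 cdk8Δ and 0.46 and 0.56 in rpb1-CTD12 cdk8Δ, against 0.04 and 0.10 in wild type 330 rpm, with no overlap. The differences of 0.43 (1.35-fold, SE 0.0529, adjusted p = 3.3e-06) and 0.44 (1.35-fold, adjusted p = 3.4e-06) both passed the test. In the single mutants it was at 0.30 and 0.12 in rpb1-CTD11 and at 0.19 and 0.17 in rpb1-CTD12, against a lowest value of -0.09, a median of -0.04 and a highest value of 0.003 in wild type. It rose by 0.25 in rpb1-CTD11 (1.19-fold, adjusted p = 5.4e-05) and by 0.22 in rpb1-CTD12 (1.16-fold, adjusted p = 0.00033). Without the rpb1-CTD11 a array the first difference was 0.15 and did not pass (adjusted p = 0.015), and without the rpb1-CTD12 a array the second was 0.21 (adjusted p = 0.011). The effect of losing CDK8 was 0.18 with 11 repeats (adjusted p = 0.035) and 0.22 with 12 repeats (adjusted p = 0.019), which did not pass. Both passed with print-tip loess, the authors' values, centring on the median (0.51 and 0.48) or wild type as the control (0.29 and 0.33). With a loess on the spike-in controls they were 0.077 and 0.219 and did not pass (adjusted p = 0.87 and 0.79). Centring on the median removed the RNR3 calls in rpb1-CTD11 (0.165, adjusted p = 0.054) and rpb1-CTD12 (0.173, adjusted p = 0.055). The rpb1-CTD12 call was also lost with no background subtraction (0.185, adjusted p = 0.046). Spike-in loess removed both as well (adjusted p = 0.029 and 0.16).

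RNR3 in the longer truncations stayed near wild type. It was at -0.10 on both arrays of rpb1-CTD13, at -0.07 and 0.03 in rpb1-CTD20 and at -0.03 and -0.09 in RPB1-CTDWT, with differences from wild type of -0.06, 0.02 and -0.02. The named probes most like it over the 9 group means were TPS1, trehalose-6-phosphate synthase, GLK1, glucokinase, and PST2, a flavodoxin-like protein (r = 0.995 each). GLK1 differed from wild type by 0.77 in rpb1-CTD11 and by 0.82 in rpb1-CTD12, and TPS1 by 0.54 and 0.62.

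RNR1, the main large subunit, moved the other way. Its level was -0.32 and -0.11 in rpb1-CTD11 and -0.16 and -0.06 in rpb1-CTD12, against a lowest value of 0.06, a median of 0.07 and a highest value of 0.18 in wild type. RNR1 fell by 0.31 in rpb1-CTD11 (1.24-fold, SE 0.0477, adjusted p = 2.2e-05) and by 0.20 in rpb1-CTD12 (1.15-fold, adjusted p = 0.002). Without the rpb1-CTD12 a array the second difference was -0.15 and did not pass (adjusted p = 0.087), nor did it against RPB1-CTDWT or rpb1-CTD20 (adjusted p = 0.08 and 0.15). In the double mutants its level was -0.06 and -0.11 with 11 repeats and -0.14 and -0.20 with 12 repeats, against 0.08 and 0.12 in wild type 330 rpm. It fell with 12 repeats (log2 difference -0.27, adjusted p = 0.0016) and did not pass with 11 (-0.18, adjusted p = 0.024). With 11 repeats RNR1 did pass with print-tip loess (-0.206, adjusted p = 0.0083) and with the authors' values (-0.231, adjusted p = 0.0034). It also passed with wild type as the control (-0.175, adjusted p = 0.0042) and without either rpb1-CTD11 array (adjusted p = 0.0059). The call with 12 repeats rested on the rpb1-CTD12 cdk8Δ b and wild type 330 rpm b arrays, without which the adjusted p was 0.024 and 0.021. Since RNR1 is transcribed in late G1, fewer cells in that phase and less RNA per cell cannot be told apart in these whole cultures.

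The small subunit genes differed less. RNR4 was at -0.29 and -0.30 in rpb1-CTD11, against a lowest value of -0.12, a median of -0.08 and a highest value of 0.04 in wild type. It fell by 0.23 there (1.18-fold, SE 0.0429, adjusted p = 0.00013), and by 0.11 when RPB1-CTDWT was the control, which did not pass (adjusted p = 0.096). In the other truncation strains RNR4 lay at -0.15 to 0.06, in RPB1-CTDWT at -0.13 and -0.23, and in the double mutants at -0.17 to -0.03, and none of those differences passed. RNR2 lay between -0.35 and 0.13 on all 24 arrays and passed the test in no comparison with the main processing. Some alternatives of processing, control or threshold did call it. For rpb1-CTD12 and for rpb1-CTD13 these were 2 of 12 alternatives each. For the loss of CDK8 with 12 repeats they were 2 of 11, and between the wild types 3 of 10. The lowest levels of RNR2 were -0.29 and -0.35 in rpb1-CTD13, below the wild type range of -0.17 to -0.03 (log2 difference -0.20, adjusted p = 0.024). The 95% confidence interval of its difference in rpb1-CTD11 was -0.24 to -0.01 and in rpb1-CTD12 -0.08 to 0.15.

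With wild type 330 rpm as the control of the double mutants, HUG1 passed the test only between the wild types. It was at -0.02 and -0.06 in wild type 330 rpm, against a lowest value of -0.35, a median of -0.26 and a highest value of -0.18 in wild type (log2 difference 0.23, adjusted p = 0.0029). This call was lost without either wild type 330 rpm array (adjusted p = 0.079 without a and 0.05 without b) and with no background subtraction (adjusted p = 0.016). It was also lost by centring on the median, where the difference was 0.05 (adjusted p = 0.76). In the same comparison 11 of the 19 mitochondrial probes fell, and their part in the result was not tested. Among the mutants HUG1 was highest in rpb1-CTD12 cdk8Δ, at 0.18 and 0.08, which is 0.17 above wild type 330 rpm (adjusted p = 0.022). With wild type as the control the difference in rpb1-CTD12 cdk8Δ was 0.40 and passed (adjusted p = 4.2e-07). In rpb1-CTD11 cdk8Δ HUG1 was at -0.14 and -0.18. In the truncation strains and RPB1-CTDWT it lay at -0.31 to -0.14, with differences from wild type of -0.015 to 0.11.

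Of 18 measured genes that control the reductase or supply dNTPs, 3 rose and 4 fell in rpb1-CTD11 (24.3% and 24.9% of all probes), and 3 rose and 6 fell in rpb1-CTD12 (18.6% and 17.4% of all probes). The first of these counts are below the shares of all probes. DCD1, the dCMP deaminase, differed by -0.66 in rpb1-CTD11 (adjusted p = 4.4e-10) and DFR1, dihydrofolate reductase, by -0.43 (adjusted p = 1.7e-08). GRX4, a glutaredoxin of iron sensing, fell by 0.49 (adjusted p = 3.9e-07), and WTM2, a relative of the protein that anchors Rnr2 and Rnr4 in the nucleus, rose by 0.37 (adjusted p = 4.1e-05). The repressor RFX1 and the reductase inhibitor SML1, which RefSeq places next to HUG1, were picked out after their values were seen. RFX1 was at -0.02 in rpb1-CTD11 and rose by 0.34 in rpb1-CTD11 cdk8Δ (adjusted p = 0.0021) and by 0.32 in rpb1-CTD12 cdk8Δ (adjusted p = 0.0036). SML1 was at 0.06 in rpb1-CTD11 and fell by 0.38 and 0.27 in the double mutants (adjusted p = 0.00015 and 0.0032).

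Among 15 genes of the Mec1 checkpoint, 3 rose and 2 fell in rpb1-CTD11 and 2 rose and 2 fell in rpb1-CTD12, which is below the shares of all probes (24.3% and 24.9%, and 18.6% and 17.4%). In each double mutant 4 rose and none fell, where 15.2% of all probes rose with 11 repeats and 15.6% with 12. DDC1, a subunit of the checkpoint clamp, rose by 0.36 in rpb1-CTD11 (adjusted p = 7.6e-07) and ASF1, a histone chaperone bound by Rad53, by 0.36 (adjusted p = 0.00021). RAD24, of the clamp loader, rose by 0.24 (adjusted p = 5.8e-05). The checkpoint kinase RAD53 was 0.22 lower in rpb1-CTD11 (log2 difference -0.22, adjusted p = 0.00037) and 0.31 higher in rpb1-CTD11 cdk8Δ (adjusted p = 0.00023). DUN1, the kinase downstream of Rad53, picked out after its values were seen, was at -0.06 in rpb1-CTD11 and rose by 0.43 and 0.34 in the double mutants (adjusted p = 0.00034 and 0.0029).

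Homologous recombination, the pathway of RAD54, had 17 measured genes besides RAD54. Of these, 10 rose and 1 fell in rpb1-CTD11, with a median of 0.30 (24.3% and 24.9% of all probes), and 6 rose and 1 fell in rpb1-CTD12, with a median of 0.15 (18.6% and 17.4% of all probes). RAD50, of the end-processing complex, rose by 0.47 (adjusted p = 5e-08), DNA2, a nuclease and helicase of resection, by 0.34 (adjusted p = 2.6e-07), RAD59, an annealing protein, by 0.30 (adjusted p = 1.3e-07) and RFA2, of the single-strand binding complex, by 0.31 (adjusted p = 1.1e-06) in rpb1-CTD11. In rpb1-CTD11 cdk8Δ 5 rose and 1 fell (15.2% and 13.2% of all probes) and in rpb1-CTD12 cdk8Δ 3 rose and 1 fell (15.6% and 11.2%). The loss of CDK8 lowered 6 and raised 1 with 11 repeats (median -0.11; 15.6% and 15.4% of all probes), and lowered 1 and raised none with 12 repeats (median -0.03; 9.05% and 10.3%). Leaving out each array gave 9 to 11 called in either direction in rpb1-CTD11 and 3 to 9 in rpb1-CTD12. It gave 3 to 8 for the loss of CDK8 with 11 repeats. Over the alternatives of processing, control and threshold these counts ranged from 0 to 12, 0 to 11 and 0 to 8. The mitochondrial probes fell in rpb1-CTD11 and rpb1-CTD12 alike, and their part in these counts was not tested.

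In nucleotide excision repair, which cuts out bulky lesions, 8 of 14 genes rose and 2 fell in rpb1-CTD11 (median 0.21; 24.3% and 24.9% of all probes), and 4 rose and none fell in rpb1-CTD12 (median 0.09; 18.6% and 17.4% of all probes). RAD23, a damage recognition protein that also binds the proteasome, was at 0.67 and 0.71 in rpb1-CTD11 and at 0.27 and 0.40 in rpb1-CTD12, against -0.15 to 0.03 in wild type. It rose by 0.74 (adjusted p = 2.4e-10) and 0.39 (adjusted p = 3.2e-06) there, and was 0.07 above wild type 330 rpm in rpb1-CTD11 cdk8Δ (adjusted p = 0.42). RAD14, which binds damaged DNA, rose by 0.33, and the incision nuclease gene RAD1 by 0.24 in rpb1-CTD11 (adjusted p = 3.7e-07 and 5.8e-07). RAD4, the partner of Rad23, rose by 0.23 (adjusted p = 0.00017). Of the 14 genes, leaving out each array gave 5 to 10 called in either direction in rpb1-CTD11 and 1 to 5 in rpb1-CTD12. Over the alternatives of processing, control and threshold these counts ranged from 0 to 12 and 0 to 6.

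Of 11 genes besides MAG1 in base excision repair, the pathway of MAG1, and direct reversal, 2 rose and 3 fell in rpb1-CTD11 and none rose and 2 fell in rpb1-CTD12. In rpb1-CTD11 these counts are near the shares of all probes (24.3% and 24.9%), and in rpb1-CTD12 18.6% of all probes rose and 17.4% fell. MGT1, which removes alkyl groups from guanine, rose by 0.27 (adjusted p = 0.0013) and APN1, the main endonuclease at abasic sites, which acts after Mag1, by 0.15 (adjusted p = 0.0019) in rpb1-CTD11. The ligase gene CDC9 and the uracil glycosylase gene UNG1 fell by 0.33 and 0.23 (adjusted p = 1.9e-05 and 4.3e-05). Of 10 postreplication repair genes 5 rose and 4 fell in rpb1-CTD11, against the same shares of all probes. The ubiquitin-conjugating enzyme UBC13 rose by 0.80 (adjusted p = 2.1e-10), whereas REV7, of the bypass polymerase zeta, fell by 0.73 (adjusted p = 1.2e-08). RAD30, polymerase eta, fell by 0.34 and POL30, the sliding clamp, by 0.35 (adjusted p = 2.2e-06 and 3.1e-06). Of 5 mismatch repair genes 3 fell and none rose in rpb1-CTD11, MLH2 by 0.28 (adjusted p = 6.4e-06).

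The G1/S genes under MBF, to which RNR1 belongs by its control, are a list of 19 besides RNR1. In rpb1-CTD11 8 fell and none rose (median -0.14; 24.9% and 24.3% of all probes) and in rpb1-CTD12 5 fell and none rose (median -0.07; 17.4% and 18.6% of all probes). SMC3, of cohesin, differed by -0.35 (adjusted p = 3.5e-07), POL12, of the primase complex, by -0.32 (adjusted p = 7.3e-07), and the cyclin gene CLB6 by -0.42 (adjusted p = 1.1e-06) in rpb1-CTD11. In rpb1-CTD11 cdk8Δ 5 rose and none fell (15.2% and 13.2% of all probes), and in rpb1-CTD12 cdk8Δ 2 rose and 2 fell (15.6% and 11.2%). The loss of CDK8 raised 10 of 19 with 11 repeats (median 0.27; 15.4% of all probes) and 2 with 12 repeats (median 0.10; 10.3% of all probes), and lowered none. Leaving out each array gave 6 to 9 called in either direction in rpb1-CTD11 and 3 to 6 in rpb1-CTD12. It gave 7 to 10 for the loss of CDK8 with 11 repeats. Over the alternatives of processing, control and threshold these counts ranged from 0 to 12, 0 to 6 and 0 to 11. RNR1 itself differed by 0.13 for the loss of CDK8 with 11 repeats (95% confidence interval -0.04 to 0.29, adjusted p = 0.20). Over the 9 group means the named probes most like RNR1 were SUR2, a sphingolipid hydroxylase (r = 0.970), SET2, a histone methyltransferase (r = 0.948), and PHO3, an acid phosphatase (r = 0.936), and those most like RNR4 were RPL36A, a ribosomal protein gene (r = 0.923), PFA4, a palmitoyltransferase (r = 0.903), and SRD1 (r = 0.902).

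The 7 genes did not share 1 profile among themselves. Over the 9 group means MAG1 and RAD54 had r = 0.877, RNR1 and RAD54 r = -0.889, and MAG1 and RNR4 r = -0.738, while HUG1 had r = 0.036 with MAG1. RNR3 and RNR1, the alternative large subunits, had r = -0.638, and RNR2 and RNR4, which form 1 complex, had r = 0.109. These values describe 9 means that share the reference pool, and over the 8 wild type arrays MAG1 and RAD54 had r = -0.258.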

How the data were processed

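RNA of 9 groups was measured on 24 dual-channel spotted arrays. The deposited scanner files give, per the file headers, an intensity and a local background for every spot, which the authors had not normalized. The deposited series table gives the authors' log2 ratios. They come from a loess per print-tip (span 0.4), had no background taken off and were adjusted for dye bias gene by gene. Each column correlated at 0.378 to 0.874 with the scanner ratio of sample over reference, which sets its direction. A further deposited table, with the authors' own strain comparisons as log2 ratios and p-values from limma 2.12.0, was not used. The design text and the sample labels give opposite dye orders; the labels were used, and the low SSN3 signal in the cdk8Δ samples fits them.

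Intensities were background-corrected (normexp, offset 50). Each array was then normalized by 1 loess curve (span 0.3) to which control spots did not contribute, and both spots of each probe were averaged. One limma model (version 3.58.1, R 4.3.3) over the 24 arrays had a coefficient for every group plus a term for the dye. That term is also the block for the letters a and b, since a stands for Cy3 and b for Cy5 in every group; the b minus a differences of the groups correlated at 0.621 to 0.927 over 28 pairs of groups. It was -0.84 for MAG1 and -0.22 to 0.19 for the other genes. The code was tested on simulated data. Two-sided tests were adjusted (Benjamini-Hochberg) across the 6388 gene probes, and confidence intervals are 95%. Gene names are those of the platform annotation, of which 5324 of 5326 matched RefSeq; no coordinates or sequences are given. The 7 genes and the gene lists were chosen with earlier results of these data known. The text names the 7 genes, DDI1, RAD23, marker genes, from every list at most 4 genes (those of lowest p in rpb1-CTD11) and the 3 named probes most like each called gene, and states exceptions. Alternatives changed the background correction, the normalization, the source of the values, the filter on dim probes, the dye term, a block for the k labels, the controls, the thresholds and the arrays; rpb1-CTD20 as a control was added after the data were seen.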

Additional observations from a re-analysis of the deposited data

Results flagged for a closer look

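One result differed between the CTD lengths by a test of the difference itself. The effect of losing CDK8 on MAG1 was -1.62 with 11 repeats and -0.75 with 12 repeats, and the difference of -0.863 passed the threshold (95% confidence interval -1.199 to -0.53, limma, adjusted p = 0.0032). It missed the threshold without the rpb1-CTD11 a, rpb1-CTD12 b, rpb1-CTD11 cdk8Δ b or rpb1-CTD12 cdk8Δ a array (adjusted p = 0.012, 0.021, 0.024 and 0.022), and its value was -0.99 to -0.74 over all 24 arrays left out in turn. It also missed the threshold without the dye term (-0.863, adjusted p = 1) and with a loess on the spike-in controls (-0.933, adjusted p = 1). In the same contrast 15 of 19 mitochondrial probes rose for each CTD length. The marker MET17 differed by -0.77 with 11 repeats and by 4.78 with 12 repeats, so the lengths also differ in this marker. The part of these probes in the result was not tested. For RAD54 the same difference was -0.19 (adjusted p = 0.049).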

How the results depend on the processing

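Of the values recomputed for the 7 genes, DDI1 and RAD23, 3623 kept their direction and side of the threshold, 93 lost and 52 gained a call, and 3 turned. The 3 were RNR4, RAD54 and RAD23 in rpb1-CTD13 with a loess on the spike-in controls alone, at -0.59, -0.484 and -0.627; that scaling moved the median of all probes by -0.587 there, by -0.319 in rpb1-CTD20 and by 0.308 in wild type 330 rpm. With it, the called genes among the 7 numbered 5 in rpb1-CTD13, 0 in rpb1-CTD12, 1 in rpb1-CTD11, 0 and 1 in the double mutants with 11 and 12 repeats, 1 and 0 for the loss of CDK8, 0 between rpb1-CTD11 and rpb1-CTD12 and 0 between the wild types, and MAG1 in rpb1-CTD11 was at 1.657 (adjusted p = 4.4e-05). Without the dye term, which is the replicate block, rpb1-CTD11 had 5 called and rpb1-CTD12 had 2, with 1 and 2 in the double mutants, 0 and 0 for the loss of CDK8, 0 between rpb1-CTD11 and rpb1-CTD12 and 0 between the wild types; among the calls that depended on the block were MAG1 in rpb1-CTD12 (adjusted p = 0.084) and RAD54 in the double mutants (adjusted p = 0.091 and 0.3). With no background subtraction 0 were called between the wild types. With print-tip loess, and with the authors' values, 4 and 3 were called for the loss of CDK8 with 11 and 12 repeats and 2 between the wild types. Centring on the median gave 2 in rpb1-CTD12, 2 for the loss of CDK8 with 12 repeats and 0 between the wild types. With wild type as the control, 5 were called in rpb1-CTD12 cdk8Δ and 3 for the loss of CDK8 with 12 repeats. At an adjusted p under 0.05 there were 1 in rpb1-CTD13, 4 and 2 for the loss of CDK8 and 2 between the wild types. With a fold change over 1.7 as well, 1 was called in rpb1-CTD11, 1 in rpb1-CTD12, 0 in each double mutant, 1 and 0 for the loss of CDK8, 0 between rpb1-CTD11 and rpb1-CTD12 and 0 between the wild types. Leaving out each array gave 4 to 5 for rpb1-CTD11, 2 to 4 for rpb1-CTD12 (2 without its a array), 0 to 1 in rpb1-CTD13 (1 without either rpb1-CTD12 cdk8Δ array), 2 to 3 in each double mutant, 2 to 3 and 1 to 2 for the loss of CDK8 (2 with 12 repeats without either rpb1-CTD11 array), and 0 to 1 between the wild types. The share of higher among all calls moved by over 10 points in rpb1-CTD20 (35.3% by the median and 14.3% by spike-ins, against 45.8%), in RPB1-CTDWT (0% by both and without background subtraction, against 11.1%) and between rpb1-CTD11 and rpb1-CTD12 (43.4% by the median and 100% of 1 call by spike-ins, against 54%). By spike-ins it was 29.4% in rpb1-CTD12 against 51.5%, 0% in rpb1-CTD13 against 25.9%, 79% in rpb1-CTD12 cdk8Δ against 58.1%, 78.9% against 53.2% for the loss of CDK8 with 12 repeats and 75% against 55.1% between the wild types. The causes were not tested. The precision is limited by 2 arrays per strain and, for RNR3 and HUG1, by signals near those of empty spots.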
